A study of Caenorhabditis elegans with 12 samples.

Results

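Ultraviolet light (UV) alone was compared with no exposure in whole worms of the nematode Caenorhabditis elegans, on 3 arrays labelled UV and 3 arrays labelled Control out of 12 in the series. The arrays were chosen by their titles alone, and every probe set for worm RNA entered the comparison. UV worms were wild-type hermaphrodites, young adults of 3 days from a synchronized culture, irradiated for 4 h at 20 °C and then left for 20 h in the incubator that held the unirradiated groups. Control worms had the same strain, sex and age and spent 24 h at 20 °C with no irradiation. Both groups were in salt medium with no food, so fasting was common to them. The UV wavelength and dose are not given in the sources used here. A further 3 arrays carried UV with titanium dioxide (UV+TiO2) and 3 carried titanium dioxide alone (TiO2). They gave the same UV exposure in arrays that the comparison of UV with Control does not use.

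No label ties an array to a culture of its own. The p-values hence reflect how much these samples vary among themselves, and part of that variation may be technical. Each sample is RNA of whole animals with their germ line and any embryos inside them. In such samples fewer cells of a type and less RNA per cell cannot be told apart.

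UV links neighbouring pyrimidines in DNA, and such lesions stall RNA polymerases and replication forks. Nucleotide excision repair removes them: in worms XPC-1 starts it genome-wide and CSB-1 at stalled transcription, and both routes use XPA-1 and the nucleases XPG-1 and XPF-1/ERCC-1. Translesion polymerases copy past lesions that remain. In the germ line, the only dividing tissue of the adult, damage also acts through checkpoint kinases and the p53 relative CEP-1, which induces the death activator gene egl-1. Adult somatic cells do not divide.

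Of 22548 probe sets, 27.5% had a higher and 23.1% a lower value in UV worms by limma at an adjusted p under 0.05. With 1 probe set per gene, 4784 of 17118 genes (27.9%) rose and 3903 (22.8%) fell. These shares are the background for every list below. Changes of at least 2-fold leaned downward: 3.99% of genes rose and 9.97% fell that far. At 4-fold there were 51 rises and 495 falls, and at 16-fold 8 and 28. All values below are RMA values on the log2 scale, and all changes are UV minus Control on that scale. The median change over all genes was 0.11. Centring every array at its own median raised it to 0.29, and then 12231 probe sets were higher and 4175 lower, against 6198 and 5216 as deposited.

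The control probe sets on the arrays also differed between the groups, and they bear on what a rise or a fall means here. RMA makes the value distributions of arrays alike, so each value is relative to the rest of its array. The names of 18 control probe sets mark them as targets of hybridization controls of bacterial and phage origin, and those of 24 others as targets of bacterial poly-A controls. The labels do not say how such controls were added. The hybridization class averaged 9.66, 9.72 and 9.69 on the UV arrays, against 8.93, 9.13 and 9 on the Control arrays. The poly-A class averaged 7.46, 7.62 and 7.57 on the UV arrays, against 5.87, 6.42 and 6.34 on the Control arrays. In both classes every probe set had all 3 UV arrays above all 3 Control arrays, 18 of 18 and 24 of 24. Among the worm probe sets 31.4% lay wholly above and 24.7% wholly below in UV. The class means were 0.67 and 1.34 higher in UV, and 0.61 and 1.45 higher in UV+TiO2 than in TiO2.

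A scale set on those controls moves every worm gene down by the same amount. On the hybridization scale 601 genes rose and 12527 fell, with a median change of −0.56 over all genes, and on the poly-A scale 92 genes rose, with a median of −1.23. A rise below about 0.67 therefore lies below 0 on the first of these scales, and a rise below about 1.34 on the second. The order of the genes by change, and of the lists by median change, is the same on each scale. The order of the lists by share of called members is not. On the hybridization scale the rises went from 18 to 0 among 26 excision repair genes. Among 128 numbered collagen genes they went from 72 to 22. Rises and falls are given on the deposited scale, which is relative to all worm RNA on an array.

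**Figure D1:**
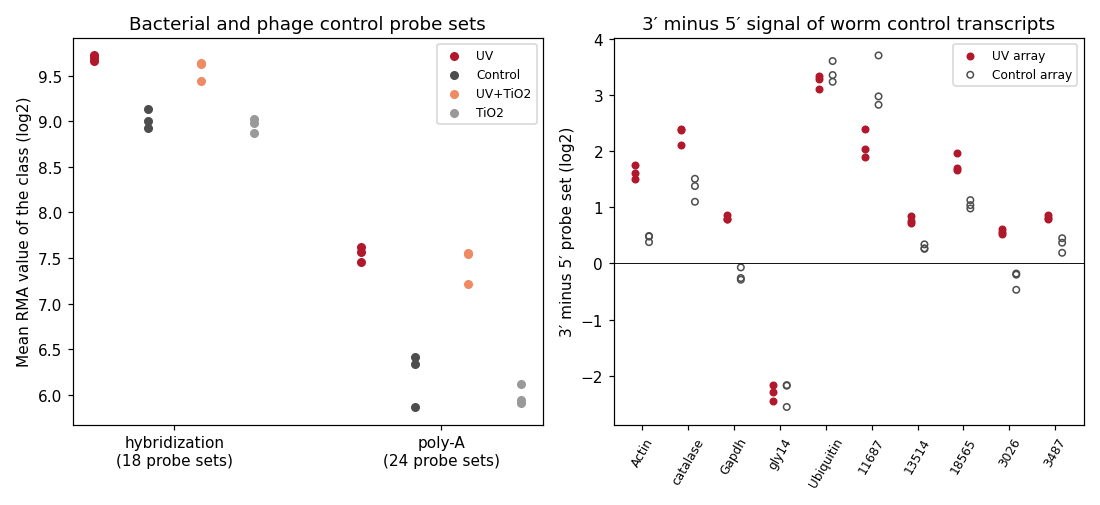
Left: mean log2 RMA value of each class of control probe sets, 1 point per array, in UV, Control, UV+TiO2 and TiO2 arrays; both classes were higher in all arrays with UV. Right: log2 value of the 3′ minus the 5′ probe set of 10 worm control transcripts, with UV arrays left of Control arrays; for 7 of them, such as actin (1.63 in UV and 0.45 in Control on average), all UV arrays lay above all Control arrays.

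Probe sets at the 3′ and 5′ ends of a transcript did not move alike. The 3′ minus 5′ difference of actin was 1.51, 1.62 and 1.75 in UV worms, against 0.38, 0.49 and 0.48 in Control worms. The 3′ probe set of actin was 0.23 higher in UV and the 5′ one 0.95 lower. The difference of the glycolytic gene Gapdh was 0.79, 0.79 and 0.86 in UV worms, against −0.26, −0.07 and −0.29 in Control worms. Of 10 such transcripts, 7 had all UV arrays above all Control arrays, ubiquitin and gly14 overlapped, and 1 had all UV arrays below (mean 2.11 in UV, 3.17 in Control). The UV+TiO2 and TiO2 arrays gave 1.61 and 0.45 for actin. The part of these shifts in any gene's change was not tested. Probe sets of a gene could also be called in opposite directions, as in 134 of the 1295 genes that had several called probe sets. For the calcium/calmodulin kinase gene unc-43 they ran from −2.94 to 0.55, and for the nuclear receptor gene nhr-88 from −2.82 to 0.44.

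The 30 largest rises held few genes with a known role. F59C12.4 reached 12, 11.94 and 12.08 in UV worms, against 7.26, 7.06 and 6.87 in Control worms, a 30.8-fold rise (SE 0.11, adjusted p = 9.44e-12). K09D9.1 stood at 10.46, 10.26 and 10.02 in UV worms, against 5.66, 5.12 and 5.2 in Control worms. vit-1, a yolk protein gene, had 12.03, 11.87 and 11.77 in UV worms, against 8.17, 8.67 and 8.7 in Control worms. In all 3 genes the groups were far apart relative to their spread. vit-1 rose 10.4-fold while the other yolk genes did not: vit-2 (−0.64), vit-6 (−0.47) and vit-5 (−0.27) fell, and vit-4 was at −0.11 without passing. F53B2.8 rose 10.5-fold, with 11.43, 11.46 and 11.48 in UV and 8.19, 8.17 and 7.85 in Control. exh-1 rose 8.88-fold and F25E2.2 7.54-fold. Further down the 30 were the inducible chaperone gene hsp-70 (8.01-fold), the cytochrome P450 gene cyp-35A3 (6.06-fold), the bZIP transcription factor gene zip-10 (5.43-fold), the fungus-induced peptide gene fipr-24 (5.53-fold), the sperm genes ssp-34 and nspd-4, and the cuticle collagen genes col-142 (5.23-fold) and col-139 (5.02-fold). The probe sets of fipr-24 and nspd-4 can detect relatives in the same family.

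**Figure D2:**
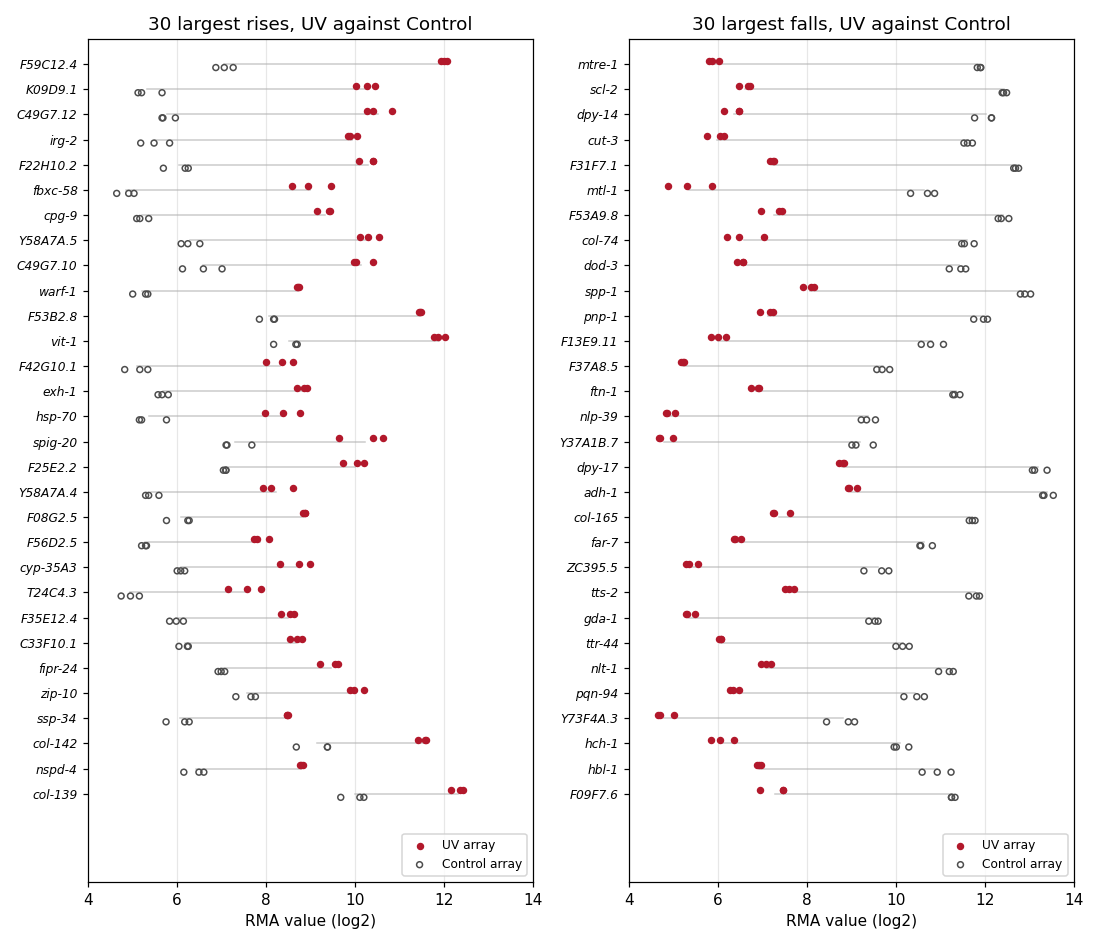
RMA values (log2, x axis) of the 30 genes with the largest rises (left) and the 30 with the largest falls (right) among genes that passed and whose groups did not overlap, with the 3 UV arrays as filled points above the 3 Control arrays as open points. The UV values of F59C12.4 lie near 12 and its Control values near 7, and mtre-1 (5.89 in UV and 11.88 in Control on average) heads the falls.

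The 30 largest falls were deeper than the 30 largest rises. pnp-1, which encodes a purine nucleoside phosphorylase, had 7.17, 7.23 and 6.95 in UV worms, against 11.75, 11.97 and 12.06 in Control worms, a 28-fold fall. adh-1, an alcohol dehydrogenase gene, had 8.94, 9.13 and 8.93 in UV worms, against 13.3, 13.54 and 13.33 in Control worms (20.9-fold). hbl-1, which encodes a hunchback-like zinc finger factor of developmental timing, had 6.87, 6.97 and 6.91 in UV worms, against 10.59, 11.24 and 10.93 in Control worms (16-fold). None of these 3 genes had overlapping groups. nlp-39, a neuropeptide-like gene, fell 22.2-fold, and the fatty acid and retinol binding protein gene far-7 fell 18.6-fold. The lipid transfer protein gene nlt-1 fell 16.9-fold, the transthyretin-related gene ttr-44 17.1-fold and the hatching enzyme gene hch-1 changed by −4.01. Among falls of at least 2-fold, the highest Control values were those of F41F3.3 (−2.72), the non-coding RNA tts-1 (−2.47), asp-1 (−2.35) and asp-6 (−2.26). asp-1 and asp-6 encode aspartyl proteases, and the probe set of F41F3.3 can detect other, similar sequences. Among rises of at least 2-fold, the highest UV values were those of col-80 (1.86), col-8 (1.66), ctsa-1.1 (1.1) and col-19 (1.13). ctsa-1.1 encodes a serine carboxypeptidase, and the others are collagen genes.

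Some large changes fell on neighbouring genes. On chromosome V, C49G7.12, C49G7.10 and irg-2 follow each other in the RefSeq gene table and rose by 4.74, 3.56 and 4.43. On chromosome X, the lipocalin-related genes lpr-3, lpr-6, lpr-5 and lpr-4 follow each other, and they changed by −2.88, −2.66, −2.98 and −3.08. lpr-4 had 6.71, 6.49 and 6.95 in UV worms, against 9.6, 10.11 and 9.68 in Control worms, with no overlap. Among the protein-coding genes of that table, these were the only runs of 3 or more neighbours that all moved 4-fold or more in one direction. A gene not measured here ended a run in this search.

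The chromosomes differed in their shares. Of 2351 X-linked genes 15.1% rose and 38.7% fell, and 419 fell at least 2-fold. On the 5 autosomes between 22.8% and 37.5% of genes rose and between 19.1% and 21.5% fell. The X chromosome of worms is known to hold few genes that are active in the germ line. By mean signal over all arrays, the 25% of genes with the lowest signal had the fewest calls (14.4% rose, 7.73% fell), those above the median but below the top 25% had the most falls (40.8%), and the top 25% had the most rises (44.6%). These shares are descriptions, and no test was made of them.

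Excision repair genes leaned upward by small amounts. Of 26 measured genes 18 rose and none fell (median 0.57), against 27.9% and 22.8% of all genes. The genome-wide recognition gene xpc-1 had 9.67, 9.52 and 9.48 in UV worms, against 9.48, 8.23 and 8.36 in Control worms (0.86, SE 0.28, adjusted p = 0.0233). Its groups overlapped at Control replicate 1, and its call was lost without UV replicate 1 or 2 or without Control replicate 2 or 3. The transcription-coupled gene csb-1 had 9.16, 9.1 and 9.15 in UV worms, against 8.76, 9.06 and 8.98 in Control worms, and did not pass (0.2, adjusted p = 0.113), while its partner gene csa-1 rose (0.47). The damage-binding gene ddb-1 (0.49) and the gene for the XPC partner RAD-23 (0.31) rose too. Of the 12 genes for opening and verification 10 rose, among them the TFIIH genes xpb-1 (0.86), gtf-2H3 (0.83) and gtf-2H5 (0.86) and xpa-1 (0.55). Among the incision and gap-filling genes xpf-1 (0.76), the ligase gene lig-1 (0.74) and the clamp loader genes rfc-1 (0.69) and rfc-4 (0.84) rose. The incision gene xpg-1 (−0.2), the XPF-1 partner gene ercc-1 (0.39) and the sliding clamp gene pcn-1 (−0.14) did not pass.

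Among 6 translesion genes 3 rose. polh-1, which encodes polymerase eta, had 9.67, 9.71 and 9.72 in UV worms, against 8.87, 8.45 and 7.98 in Control worms (1.27, adjusted p = 8.28e-05), with no overlap. rev-3 (0.44) and dvc-1 (0.77), which acts at stalled forks, rose (rev-3 lost its call with the replicate block, adjusted p = 0.063), while rev-1 was at −0.09, polk-1 at 0.25 and polq-1 at 0.44 without passing. On the hybridization scale the median of the excision repair list was −0.1, with 9 members lower and none higher. Without any 1 of the UV or Control arrays, 12 to 19 excision repair genes rose and none fell, the fewest without UV replicate 2, and rev-3, ddb-1 and xpa-1 were not called in several of these fits.

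Checkpoint and death genes were mixed. Of 12 sensor and kinase genes 8 rose and none fell. They included hpr-9 (1.22), hpr-17 (0.91), hus-1 (0.67) and mrt-2 (0.65), whose products form or load the clamp at damaged DNA, and the kinase genes chk-2 (0.8) and chk-1 (0.27). The kinase genes atm-1 (0.18) and atl-1 (−0.25) at the head of the pathway did not pass. cep-1 itself had 9.31, 9.14 and 9.07 in UV worms, against 8.94, 7.99 and 8.68 in Control worms, and rose (0.64). Of 5 genes of the death machinery egl-1 alone rose, with 7.92, 7.99 and 7.92 in UV worms, against 6.77, 6.79 and 7.02 in Control worms (1.08, adjusted p = 2.39e-06). ced-13, the other death activator gene under CEP-1, was at 0.2 (adjusted p = 0.0744). The caspase gene ced-3 (0.13), its activator gene ced-4 (0.16) and the inhibitor gene ced-9 (0.31) did not pass. In corpse removal 8 of 19 genes rose, with the receptor gene ced-1 (0.81) and ced-12 (0.87) among them, and 3 fell, the largest fall being that of the lysosomal nuclease gene nuc-1 (−2.25).

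Genes of dividing and germ cells rose in larger shares. In the replication list 20 of 27 rose and none fell (median 0.41). psf-3, a GINS complex gene, had 9.79, 9.77 and 9.23 in UV worms, against 8.23, 8.3 and 7.54 in Control worms, with no overlap (1.57). Of 37 spindle and kinetochore genes 27 rose and none fell. They included the spindle checkpoint gene mdf-1 (1.94), with 8.88, 8.4 and 7.85 in UV worms and 7.15, 6.1 and 6.04 in Control worms, and the meiotic kinesin gene klp-18 (1.25). Of 21 cyclin and kinase genes 13 rose and 4 fell. The largest of these falls was in the kinase inhibitor gene cki-1, which holds cells in G1: 7.64, 7.68 and 7.68 in UV worms, against 9.74, 10.4 and 10.13 in Control worms (−2.42). The cyclin D gene cyd-1 (−0.58), cki-2 (−0.37) and the phosphatase gene cdc-25.2 (−0.25) were the others.

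Of 39 meiosis genes 31 rose and 1 fell (median 0.71). him-14, a MutS homologue that forms crossovers with MSH-5, had 8, 7.83 and 7.56 in UV worms, against 6.82, 5.8 and 5.87 in Control worms (1.63). The pairing centre genes zim-1 (0.92), zim-2 (1.17) and zim-3 (1.27), spo-11 (0.9), which makes the meiotic breaks, and brc-2 (1.17) rose as well. The recombinase gene rad-51 was the 1 that fell, with 10.08, 10.14 and 10.11 in UV worms, against 10.54, 10.33 and 10.31 in Control worms (−0.28, adjusted p = 0.0184). Its call was lost without UV replicate 1 or Control replicate 1 and with centred arrays, and without Control replicate 2 the list had 2 falls. The synapsis genes him-3 (0.03) and htp-1 (−0.06) did not pass. Of 12 marker genes of the germ line 5 rose and none fell. Their summed signal ran from 25453 to 25797 on the UV arrays and from 19758 to 21242 on the Control arrays. These markers include him-3 of the meiosis list. The part of the amount of germ-line RNA in the repair, replication and meiosis lists was not tested. On the hybridization scale the medians of these lists were −0.26 for replication and 0.04 for meiosis.

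All 27 genes in the list of major sperm proteins, the cytoskeletal proteins of crawling worm sperm, and their relatives were called higher (median 1.66, range 0.72 to 2). These genes are nearly identical copies with shared probes, so they are not 27 separate measurements. msp-49 had 10.78, 10.95 and 10.95 in UV worms, against 8.33, 9.13 and 9.23 in Control worms, with Control replicate 1 the lowest. The sperm phosphatase genes gsp-3 (1.53) and gsp-4 (1.16) rose with them. In the list of spermatogenesis and activation genes 15 of 29 rose and none fell, but by less (median 0.3). The activation genes spe-8 (0.25), the fusion-related ferlin gene fer-1 (0.21) and the fertilization genes spe-9 (0.31) and spe-38 (0.17) did not pass. The summed signal of 10 sperm markers ran from 6655 to 7675 in UV and from 1938 to 3345 in Control. These markers include msp-3, msp-19, gsp-3 and gsp-4, so the sum partly repeats the values above. Of the 10, 7 rose and none fell, and spe-9, spe-38 and fer-1 did not pass. On the hybridization scale 26 of the 27 major sperm protein genes were still higher (median 0.99), and on the poly-A scale 11 (median 0.32).

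Oocyte genes moved little. Of 31 oocyte and eggshell genes 16 rose and 3 fell (median 0.26). The eggshell chitin synthase gene chs-1 (1.07), the RNA-binding protein gene puf-11 (0.76) and the yolk receptor gene rme-2 (0.56) rose, and the maturation factor gene oma-1 (−0.43), perm-4 (−0.32) and spn-4 (−0.28) fell. The summed signal of 12 oocyte markers was 71603 to 74995 in UV and 70308 to 72623 in Control. These markers include chs-1, rme-2, oma-1, perm-4 and spn-4. The chondroitin proteoglycan genes split: cpg-9 rose 17.5-fold and cpg-4 by 1.17, cpg-19 (−1.03) and cpg-20 (−0.95) fell, and the eggshell gene cpg-1 (0.03) did not pass. Among 12 embryo markers 4 rose and 3 fell, with hch-1 (−4.01), nhr-68 (−3.62) and pes-10 (−0.6) as the falls and pal-1 (0.77) and skpo-1 (0.81) among the rises. nhr-68 is also known from propionate metabolism in the adult gut, and the tissue in which it fell was not tested.

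Core machinery of gene expression rose by modest amounts. Of 59 mitochondrial ribosomal protein genes 46 rose and none fell (median 0.54). mrps-21 had 9.67, 9.49 and 9.4 in UV worms, against 8.1, 8.09 and 7.61 in Control worms, with no overlap (1.59). In the spliceosome list 38 of 56 rose and 1, sup-46, fell (median 0.45), with snu-23 (1.61), snrp-27 (1.2) and prp-40 (1.02) the largest, while the large catalytic core gene prp-8 was at −0.38 and did not pass. In the list of RNA polymerase II, its general factors and Mediator 33 of 49 rose, such as rpb-12 (1.29), mdt-30 (1.32) and taf-11.2 (1.27). The 4 that fell were ama-1 (−0.38), which encodes the largest polymerase subunit, and the Mediator genes dpy-22 (−1.32), let-19 (−0.94) and mdt-15 (−0.5). Of 41 nuclear pore and transport genes 21 rose, the importin gene imb-1 most (1.48), and the exportin gene xpo-1 fell (−0.28). On the hybridization scale the medians were −0.13 for mitochondrial ribosomal proteins, −0.22 for the spliceosome and −0.17 for RNA polymerase II and Mediator.

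Several lists had rises and falls in more even numbers or few calls of either kind. Of 33 proteasome genes 9 rose and 4 fell (median 0.07), all within 0.34 below and 0.54 above Control. Of 39 translation factor genes 10 rose and 8 fell (median 0.06). The respiratory chain and ATP synthase list had 24 rises and 9 falls among 64 (median 0.11). Its largest changes were in cyc-2.2 (1.92), a cytochrome c gene, and ucr-2.1 (−1.09). Of 220 C-type lectin genes 53 rose and 44 fell (median 0.15), but 81 rose when Control replicate 3 was left out, and 35 and 33 when Control replicate 2 and 1 were. The pals genes, which respond to intracellular pathogens, had 2 rises and 4 falls among 23, and none rose by more than 0.43. Without Control replicate 3 there were 6 rises, without UV replicate 1 there were 4, and without UV replicate 3 there was 1. Centring the arrays gave 14 rises and 3 falls. Of 1275 chemoreceptor genes 162 rose and 8 fell. That count of rises was 348 without Control replicate 3 and 55 to 85 without Control replicate 1 or 2 or UV replicate 2 or 3, and 921 with centred arrays, where 9367 of all 17118 genes rose.

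**Figure D3:**
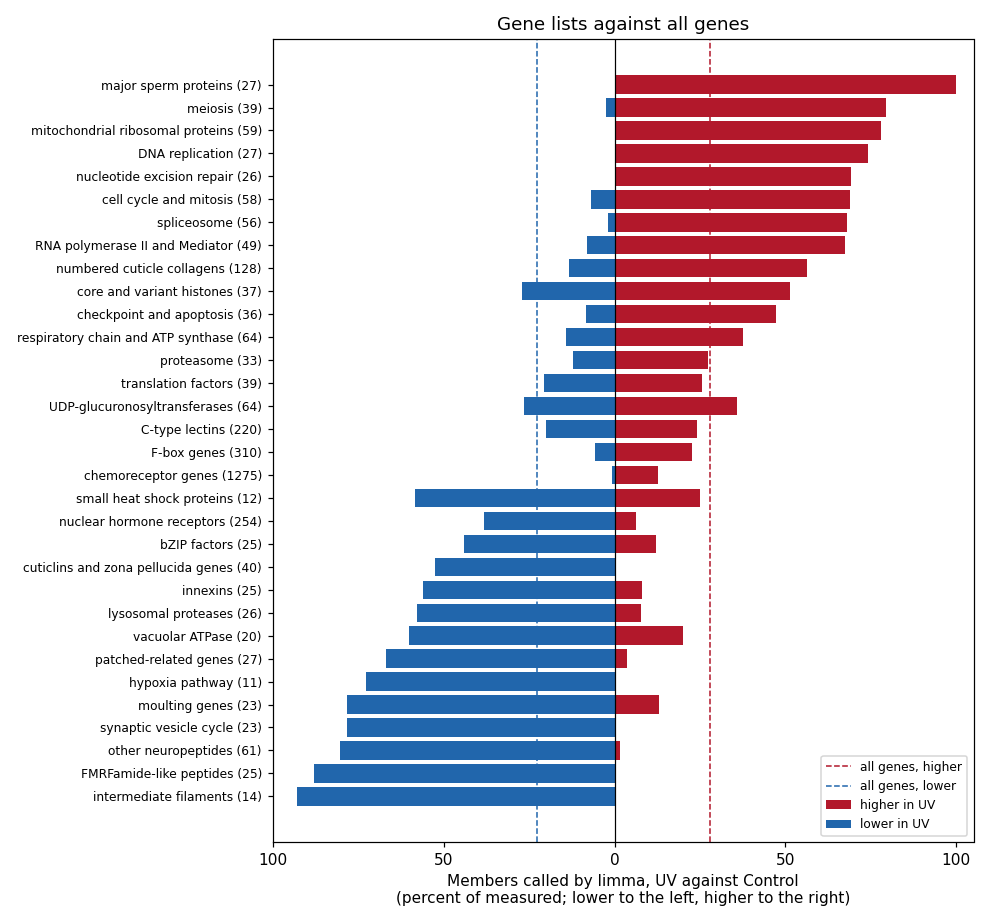
Share of the measured members (number in brackets) of 32 gene lists that limma called higher (right) or lower (left) in UV against Control, with the shares over all genes as dashed lines (27.9% and 22.8%). Major sperm proteins lie at the top with all members higher, and intermediate filaments at the bottom with 13 of 14 lower.

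Neuropeptide genes fell nearly throughout. Of 25 FMRFamide-like peptide genes 22 fell and none rose (median −1.47), and of 61 other neuropeptide genes 49 fell and 1 rose, nlp-23 (median −1.18). flp-16 had 4.8, 4.83 and 4.73 in UV worms, against 7.75, 8.28 and 8.06 in Control worms (−3.24). nlp-35 had 4.79, 4.62 and 4.68 in UV worms, against 8.4, 8.38 and 8.18 in Control worms (−3.63). Neither gene had overlapping groups. flp-27 (−0.1), flp-23 (0.09) and flp-32 (−0.23) did not pass. The genes that process and release peptides fell too, 11 of 13. These included the proprotein convertase genes kpc-1 (−2.97) and egl-3 (−1.73), the carboxypeptidase gene egl-21 (−2.21) and its fellow sbt-1 (−2.13), a chaperone of EGL-3. unc-31, a release factor of dense-core vesicles, was the 1 that rose, with 6, 5.82 and 5.68 in UV worms, against 4.91, 4.86 and 5.36 in Control worms (0.79).

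The synaptic vesicle list followed with 18 falls and no rise among 23 (median −0.88). The SNAP-25 gene ric-4 had 5.2, 5.27 and 4.91 in UV worms, against 8.65, 7.98 and 7.83 in Control worms (−3.03), and the syntaxin gene unc-64 fell by 1.91. The synaptobrevin gene snb-1 had 11.63, 11.49 and 11.54 in UV worms, against 11.54, 11.59 and 11.67 in Control worms, which overlap (−0.05, adjusted p = 0.646). Of the transmitter genes the GABA synthesis gene unc-25 (−2.12), cat-4 (−1.97) and the acetylcholine loading gene unc-17 (−0.82) fell. tdc-1 and tbh-1, the enzymes of tyramine and octopamine synthesis, rose (0.64 and 0.58). They are expressed in gonadal sheath cells as well as in neurons. More markers of the sheath and spermatheca fell than rose, with counts given below. The touch neuron tubulin genes mec-7 (−1.23) and mec-12 (−1.54) fell. The summed signal of 12 neuronal markers was 5157 to 5480 in UV and 10223 to 11253 in Control. These markers include ric-4, unc-64, snb-1, egl-3, egl-21, sbt-1 and unc-31, so the sum is not separate from the lists above. Of 56 cilium genes 18 fell and 3 rose, with no change beyond 0.84 in size. There were 6 rises without Control replicate 3, and 14 falls and 13 rises with centred arrays.

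Genes of the gut and its stores fell broadly. Of 11 intestinal markers 10 fell and 1 rose (median −1.47), and their summed signal was 7613 to 8568 in UV and 26703 to 30586 in Control. That sum adds values off the log scale, and asp-1 (11.64 in UV and 13.99 in Control on average) weighs heavily in it. The genes ifb-2, act-5, elt-2, elt-7 and vha-6 are markers of this set too. The gut intermediate filament gene ifb-2 had 7.64, 7.64 and 7.43 in UV worms, against 10.51, 10.62 and 10.49 in Control worms, and the microvillar actin gene act-5 fell by 1.84. Of 14 intermediate filament genes 13 fell (median −1.19), the exception being ifb-1 at 0.24, which did not pass. The gut GATA factor genes elt-2 (−1.01) and elt-7 (−1.61) fell, as did the epidermal one elt-3 (−2.09), while end-3, which acts in the early embryo, rose (0.31). Of 26 lysosomal protease genes 15 fell and 2 rose, with cpr-1 (−2.34), asp-3 (−2.16) and asp-1 among the falls. Of 20 vacuolar ATPase genes 12 fell and 4 rose. The gut gene vha-6 (−1.07) and vha-8 (−1.42) fell, while vha-5, of the excretory cell and epidermis, rose (0.72). Markers of the excretory system, vha-5 among them, fell in 6 of 10 cases and rose in 1. Of 10 aquaporin genes 8 fell, and aqp-2 had 10.12, 10 and 9.97 in UV worms, against 12.66, 12.69 and 12.61 in Control worms (−2.62).

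Of the factors that control lysosome and autophagy genes in fasting, an activator and a repressor both fell. hlh-30, the TFEB gene that activates them, had 7.04, 6.85 and 6.49 in UV worms, against 9.34, 9.84 and 8.96 in Control worms (−2.59). mxl-3, a repressor of lysosomal lipase genes, had 6.91, 7.01 and 6.99 in UV worms, against 9.94, 9.92 and 10.07 in Control worms (−3.01). The groups overlapped in neither gene. Of 32 autophagy genes 13 fell and 6 rose (9 and 10 with centred arrays), among them the ATG8 genes lgg-1 (−0.67) and lgg-2 (−0.73), the energy sensor gene aak-2 (−1.3) and the initiating kinase gene unc-51 (−1.33), while atg-10 (0.93) and the TOR gene let-363 (0.58) rose. Lipase genes fell in 13 of 28 cases, led by lips-10 (−3.07), while the adipose triglyceride lipase gene atgl-1 rose (0.53). Of 16 glycolysis genes 10 fell, including aldo-1 (−1.71) and gpd-3 (−1.49), and 2 rose. Short-chain dehydrogenase genes fell in 16 of 30 cases, dhs-18 most (−3.76).

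Small heat shock genes moved in both directions. The hsp-16 genes hsp-16.2 and hsp-16.41 rose, with 9.74, 9.61 and 9.44 for hsp-16.2 in UV worms, against 7.79, 7.48 and 7.2 in Control worms (2.11), and 1.74 for hsp-16.41, and hsp-17 rose by 0.55. hsp-12.6, a target of DAF-16, had 5.77, 5.8 and 5.45 in UV worms, against 10.08, 9.2 and 9.09 in Control worms (−3.78). Between these pairs of groups there was no overlap. hsp-12.3 (−3.05), hsp-12.1 (−2.78), hsp-12.2 (−2.29), hsp-25 (−1.52), hsp-43 (−1.14) and hsp-16.20 (−1.59) fell, so that 7 of 12 small heat shock genes fell and 3 rose. sip-1 was at −0.04 and hsp-16.21 at 0.12 without passing. Of the larger chaperones 8 of 13 rose and 1 fell, but beyond hsp-70 (3) none of these exceeded 0.82. hsf-1, the heat shock factor gene, rose by 0.47 and hsp-90 by 0.36, the mitochondrial gene hsp-60 was at −0.29 without passing, and the ER chaperone gene hsp-3 fell (−0.36).

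**Figure D4:**
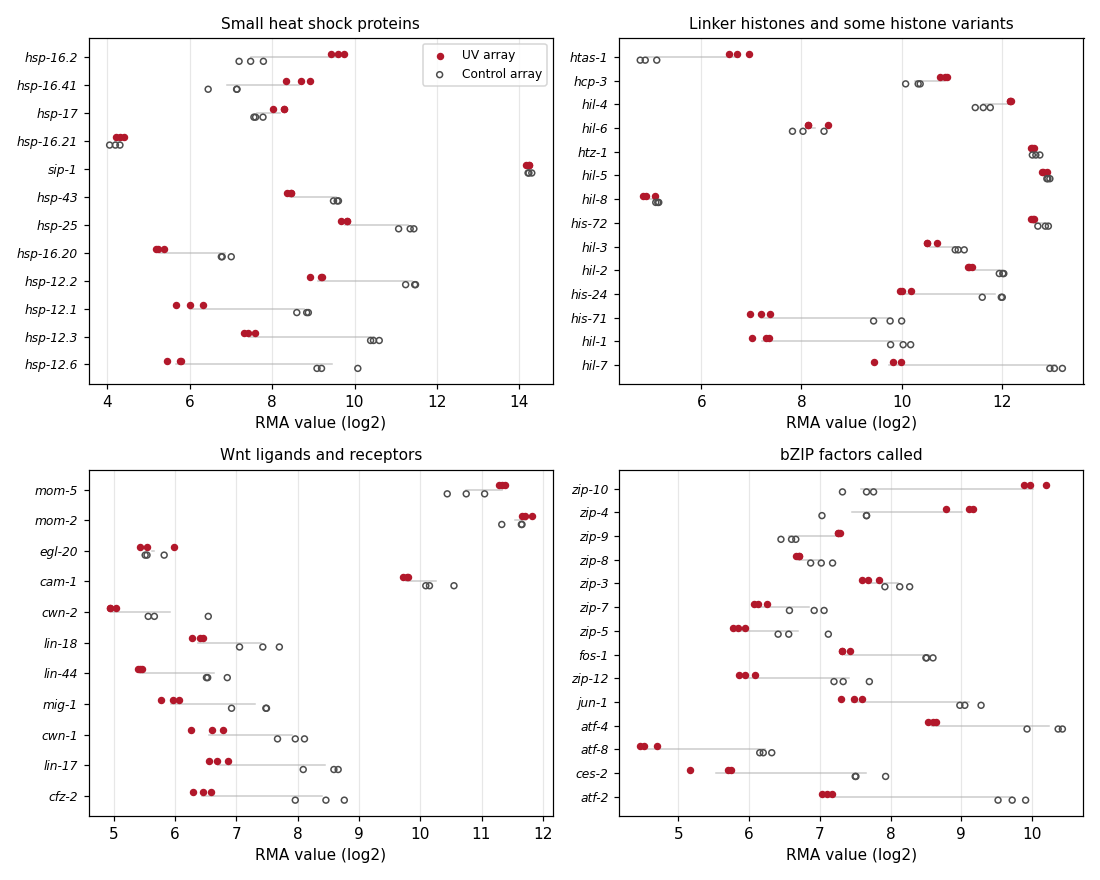
RMA values (log2, x axis) of small heat shock protein genes, linker histones with some histone variants, Wnt ligands and receptors, and the bZIP factor genes that passed, ordered by change, with UV arrays as filled points above Control arrays as open points. In each family some members lie higher and others lower in UV, such as hsp-16.2 (2.11) and hsp-12.6 (−3.78).

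Histone genes also moved in both directions. Of 37 genes 19 rose and 10 fell. Among the rises were core histone genes, such as his-67 (2.24), his-64 (1.65) and his-31 (1.59), which are near-identical copies with shared probes, and in htas-1 (1.82), a variant of sperm. The linker histone genes hil-7, with 9.45, 9.82 and 9.98 in UV worms and 13.05, 13.21 and 12.96 in Control worms (−3.32), hil-1 (−2.78), his-24 (−1.82), hil-2 (−0.65) and hil-3 (−0.57) fell, and hil-4 rose (0.54). The replacement H3.3 genes his-71 (−2.55) and his-72 (−0.23) fell, while the centromeric hcp-3 rose (0.58).

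Transcription factor families also moved unevenly. Of 25 bZIP genes 11 fell and 3 rose. zip-10, known from the response to cold, had 9.97, 9.89 and 10.2 in UV worms, against 7.32, 7.76 and 7.66 in Control worms, and zip-4 (1.57) and zip-9 (0.69) rose with it. atf-2 (−2.62), ces-2 (−2.11), a regulator of cell death in particular neurons, jun-1 (−1.64) and fos-1 (−1.18) fell, and so did atf-4 (−1.66). The stress factor genes skn-1 (0.45), xbp-1 (0.19) and atf-7 (0.1) did not pass, but skn-1 passed in several alternatives, such as the robust prior (adjusted p = 0.0393), and the others with centred arrays. Of 254 nuclear hormone receptor genes 97 fell and 16 rose (29 without Control replicate 3), but with centred arrays 76 fell and 88 rose. nhr-68 led the falls and nhr-67 the rises, with 7.87, 7.24 and 7.58 in UV worms, against 6.13, 6.18 and 6.54 in Control worms (1.28). The Hox genes mab-5 (−1.32), nob-1 (−0.93), lin-39 (−0.9) and ceh-13 (−0.42) fell, and php-3 (−0.17) and egl-5 (0.23) did not pass. Of the timing genes hbl-1, blmp-1 (−2.88), the nuclear receptor gene daf-12 (−2.26) and the microRNA Argonaute gene alg-1 (−1.91) fell, lin-28 rose (0.54), and lin-14 (0.22), lin-29 (−0.08) and lin-42 (0.08) did not pass. alg-5, an Argonaute gene of the germ line, rose by 1.62.

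Genes of Wnt ligands and receptors fell more often than they rose, while 4 of 14 effector genes rose and 4 fell. Of 5 ligand genes cwn-1 (−1.37), lin-44 (−1.2) and cwn-2 (−0.95) fell, while mom-2, which acts in early embryos, was at 0.18 and egl-20 at 0.02 without passing. Of 6 receptor genes cfz-2 (−1.95), lin-17 (−1.75), mig-1 (−1.37), lin-18 (−1.02) and cam-1 (−0.5) fell. mom-5, the partner of mom-2, rose, with 11.39, 11.34 and 11.29 in UV worms, against 11.05, 10.75 and 10.44 in Control worms (0.59). The Dishevelled genes split in the same way, with dsh-1 at −0.97 and dsh-2 (0.94) and mig-5 (0.72) higher. In the insulin receptor pathway the receptor gene daf-2 (0.09) and the kinase gene akt-1 (0.43) did not pass, akt-2 (−1.8), sgk-1 (−1.38) and the FOXO gene daf-16 (−0.56) fell, and the phosphatase gene daf-18 rose (0.94). Of 24 insulin-like peptide genes 13 fell, led by ins-1 (−1.83), and ins-37 (0.78) and ins-39 (0.49) rose.

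The cuticle and its assembly showed the widest spread. Of 128 numbered collagen genes 72 rose and 17 fell (median 0.44). Of the furrow collagen genes dpy-7, with 7.92, 8.2 and 8.08 in UV worms and 9.9, 10.13 and 10.38 in Control worms (−2.07), dpy-2 (−1.14) and dpy-3 (−0.88) fell. Of 14 other body shape collagen genes 10 rose, such as dpy-5 (1.57), sqt-2 (1.09) and rol-6 (1.02), and dpy-14 (−5.67), dpy-17 (−4.4) and ram-2 (−1.57) fell. Of 40 cuticlin and zona pellucida genes 21 fell and none rose, cut-3 (−5.64), noah-1 (−3.65) and cut-2 (−3.42) most. However, 5 rose without Control replicate 3, and with centred arrays 14 fell and 6 rose. Of 23 moulting genes 18 fell (median −1.25), led by mlt-11 (−3.5), and the nuclear receptor gene nhr-23 (0.42), egg-6 (0.58) and bli-5 (0.63) rose. Of 27 patched-related genes 18 fell and 1, ptr-2, rose. Basement membrane laminin genes split, as lam-1 (0.94), lam-2 (1.18) and epi-1 (1.23) rose and lam-3 (−1.54) fell. Gap junction genes fell in 14 of 25 cases, inx-1 by 3.73, and rose in 2, of which inx-8 (0.75) serves the gonadal sheath. Markers of the gonadal sheath and spermatheca, inx-8 among them, fell in 5 of 9 cases and rose in 2 (median −0.48). Their summed signal was 7748 to 7984 in UV and 6402 to 7180 in Control. Of 12 hypodermal markers 4 rose and 5 fell.

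Detoxification and immune families were led by a few members, and their counts stand beside 27.9% of all genes that rose and 22.8% that fell. Of 73 cytochrome P450 genes 15 (20.5%) rose (24 without Control replicate 3) and 19 (26%) fell, turning to 34 and 12 with centred arrays. The rises were headed by cyp-35A3 (2.6), cyp-35C1 (2.31) and cyp-35A2 (2.02) and the falls by cyp-37B1 (−2.85). Of 64 UDP-glucuronosyltransferase genes 23 (35.9%) rose and 17 (26.6%) fell, from ugt-24 (2.18) to ugt-12 (−2.49). The P-glycoprotein gene pgp-3 rose by 1.94 and the transporter gene haf-4, of gut granules, fell by 2.37. Of 310 F-box genes 70 (22.6%) rose and 18 (5.81%) fell, both under the shares of all genes. In this family fbxc-58 (4.13) stood far above the next, fbxa-163 (1.98). The Skp1-related partners of F-box proteins split, with 7 rises, led by skr-16 (1.28), and 8 falls, led by skr-21 (−2.17), or 9 and 8 with centred arrays. Of 8 infection response genes irg-2 (4.43), irg-8 (1.76), irg-1 (1.22), irg-4 (1.18) and irg-5 (1.07) rose and irg-3 (−1.7) and irg-7 (−0.27) fell. Of the antioxidant genes the peroxisomal catalase gene ctl-2 (−2.75) and gpx-5 (−2.61) fell, gss-1 rose (0.84), and the superoxide dismutase genes sod-1 (−0.14) and sod-3 (−0.01) did not pass.

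The UV effect was seen again in the presence of TiO2, in arrays shared with neither UV nor Control. There 32.8% of genes rose and 21.8% fell in UV+TiO2 against TiO2. Of the genes that rose with UV alone 81.1% (3881) also rose with UV+TiO2, and these are 69% of the rises there. Of the genes that fell 87.4% (3411) also fell, which is 91.2% of the falls there. A single gene that rose with UV alone fell in the other comparison, and none did the reverse. Across 17118 genes, which are not independent replicates, the changes had a Pearson correlation of 0.965 and a Spearman correlation of 0.912. The control probe sets and the 3′ minus 5′ differences given above moved in both comparisons too. F59C12.4 rose by 4.94 and 5.3, vit-1 by 3.38 and 3.51, and hsp-16.2 by 2.11 and 2.35 in UV and in UV+TiO2. hil-7 was at −3.32 and −3.2, cki-1 at −2.42 and −2.08, and flp-16 at −3.24 and −2.88.

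**Figure D5:**
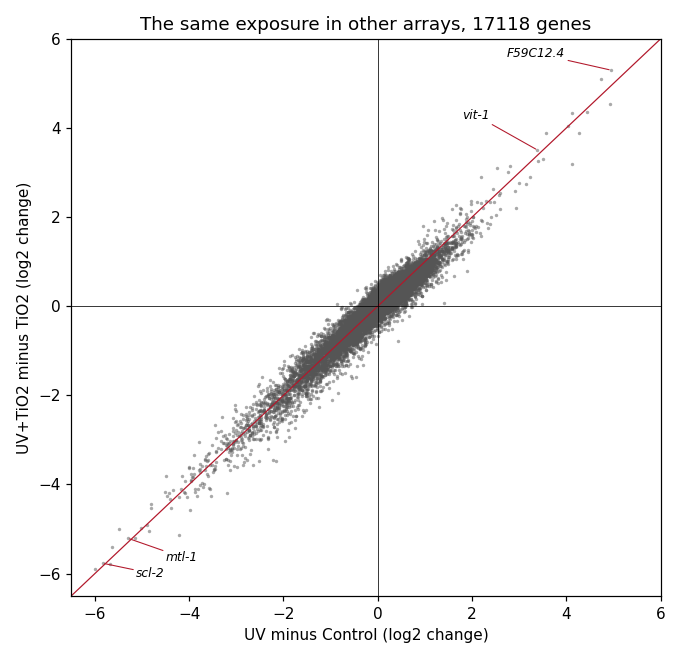
Log2 change of 17118 genes in UV minus Control (x axis) and in UV+TiO2 minus TiO2 (y axis), 1 point per gene, with the line of equal change. The points run along the line (Pearson correlation 0.965), with scl-2 and mtl-1 at its low end and F59C12.4 at its high end.

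No gene showed a UV effect that differed with TiO2 by limma's interaction test at an adjusted p under 0.05, where the smallest adjusted p was 0.12. Without adjustment, 1162 probe sets (5.15%) lay under 0.05. The median SE of the interaction was 0.168. F23F12.12 had the smallest p, with a change of −0.47 in UV against Control and −1.58 in UV+TiO2 against TiO2. The probe set of F23F12.12 can detect other, similar sequences. cpg-9 rose by 4.13 and 3.2 and the caenacin peptide gene cnc-4 was at −0.31 and −1.32 (interaction 0.93 and 1.01, adjusted p = 0.47 and 0.143). In the other direction the flavin monooxygenase gene fmo-2 stood at −1.68 and −0.96 and T12D8.5 stood at −3.3 and −2.48. Array weights gave 220 calls in place of 0.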

How the data were processed

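Total RNA (300 ng per sample) of 12 samples in 4 groups was amplified, labelled with biotin and hybridized, per the labels' protocols. The deposited values are log2 expression values made with GCOS, the Affymetrix Expression Console and RMA, per the submitters' processing notes (no versions are given in the sources used here). This method corrects background, makes distributions alike and gives 1 value per probe set, so a change in total RNA does not show. The depth of an array has no count, and the number of arrays limits the precision: the median SE of a UV minus Control difference was 0.118. Array medians were 6.361, 6.392 and 6.447 in UV, all below the 6.545, 6.565 and 6.625 in Control. They ran from 6.411 to 6.478 in UV+TiO2 and from 6.55 to 6.583 in TiO2.

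Of 22625 probe sets 77 control probe sets were set apart and 22548 tested, low values included. Gene symbols were read from the platform annotation, which gave 1 for 20766 probe sets, several for 887 and none for 895. Of those with 1 symbol 20701 matched RefSeq genes of WBcel235 and 0 symbols changed. Each gene took the probe set with the highest mean over all arrays. A linear model with a mean for every group was fitted with limma 3.58.1 under R 4.3.3 (all 12 arrays, 8 residual and 4.37 prior degrees of freedom), with Benjamini-Hochberg adjustment over all probe sets and no replicate block. Rose and fell mean an adjusted p under 0.05. The fit was tested on simulated data.

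The 99 lists (84 gene lists and 15 marker lists), the named genes and the alternatives were chosen with earlier results of these data known. Of the 84 lists 21 had more rises and fewer falls than all genes, 45 the reverse, 8 more of both and 10 fewer of both. Named genes were the 30 largest rises and 30 largest falls without overlap, in each list up to 6 called genes with the smallest p, 4 with the largest change, 4 with the highest mean and every gene of small roles, and the genes of the other rules the text describes. These genes fall outside the rule and were chosen after their values were seen, mostly as exceptions of a list: ama-1, atg-10, bli-5, cdc-25.2, ced-1, ced-12, cki-2, cyd-1, daf-2, epi-1, flp-23, flp-27, flp-32, hcp-3, hil-2, hil-3, hil-4, his-31, his-64, htas-1, ins-37, ins-39, lam-1, lam-2, let-19, let-363, lin-14, lin-29, lin-42, mdt-15, nlp-23, prp-8, skn-1, skr-16, sod-3, spe-8, spo-11, sup-46, xpo-1, zim-1, zip-4 and zip-9. Entries of a pair of lists were corrected after values were seen: translation factors were removed from the intermediate filaments, and RDE proteins that are no Argonautes from the Argonautes. Groups of 3 allow no exact permutation p below 0.10, so none was used. Alternatives are given in the closing section.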

Additional observations from a re-analysis of the deposited data

Results flagged for a closer look

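The values below come from control probe sets, which stand outside the tests on worm genes, and each was higher in UV than in Control on all arrays. The hybridization control class was 0.67 higher and the poly-A control class 1.34 higher in UV. The difference between the 3′ and the 5′ probe set was larger in UV for actin by 1.18, for Gapdh by 1.02 and for catalase by 0.96. It was also larger for 4 transcripts known by number only, by 0.85, 0.73, 0.49 and 0.48. The groups of 3 arrays were not searched for single outlying arrays.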

How the results depend on the processing

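Scaling changed the counts most. In UV against Control 12231 probe sets were higher with each array centred on its median, 765 on the hybridization control scale and 121 on the poly-A control scale, while 16632 and 21192 were lower on those control scales. In UV+TiO2 against TiO2 the counts were 11577, 691 and 75 higher, and 14557 and 21801 lower. The control scales were chosen after seeing the data, and they move every probe set by the same amount. Interaction calls numbered 0 as reported, 1 with a robust prior variance that follows the level and 220 with array weights, for which the cause was not tested. Leaving out 1 array gave 4945 to 7028 higher and 4736 to 5295 lower probe sets in UV, 5307 to 8020 higher and 4557 to 5214 lower in UV+TiO2, and 0 interactions. Same-numbered UV and Control arrays share no stated origin, so they were not paired. Their deviations nevertheless correlated at 0.5, 0.09 and 0.47, and each array correlated best with its own number. For number 2 the margin was small: UV 3 with Control 2 gave 0.07 and UV 2 with Control 1 gave 0.04. Array medians also rose with the number in both groups, and whether the arrays are paired was not tested. With the replicate number as a block 6030 probe sets were higher and 5132 lower in UV against Control, 7038 and 4926 in UV+TiO2 against TiO2, and 0 had an interaction. Among the named genes the block ended the calls of rev-3, hsp-3, his-72, irg-7, let-363 and prp-40 (adjusted p between 0.0542 and 0.0667) and gave ced-9 one (0.0276).

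Of 312 named genes 236 kept their call and direction in all 20 alternatives other than the control scales, and 18 turned direction in at least 1, none of them called on the deposited scale. Centring turned flp-27 (0.08), htp-1 (0.12), lin-29 (0.1), pcn-1 (0.04), php-3 (0.01), rev-1 (0.08), sip-1 (0.14), snb-1 (0.13), sod-1 (0.04), sod-3 (0.17) and vit-4 (0.06). Array weights turned atf-7 (−0.04), atl-1 (0.03), flp-32 (0.01), lin-42 (−0.01), rev-1 (0.27), sod-3 (0.04) and xpg-1 (0.16). A second quantile normalization turned flp-32 (0.01), lin-29 (0.01), rev-1 (0.14) and xpg-1 (0.07). It also ended the calls of mdt-15 (−0.33), cyd-1 (−0.3), atgl-1, chk-1, his-72, irg-7 and nhr-23. Leaving out 1 array gave values on both sides of 0 for egl-20 (−0.15 to 0.14), flp-27 (−0.26 to 0.07), him-3 (−0.03 to 0.11), lin-42 (−0.16 to 0.32), rev-1 (−0.39 to 0.08) and sod-3 (−0.11 to 0.17). Centring also ended the calls of ama-1 (−0.2), rad-51 (−0.11), perm-4 (−0.14), spn-4 (−0.1), cdc-25.2, cki-2, ceh-13, cnc-4, hsp-3, his-72, irg-7, vit-5, xpo-1 and sup-46. The calls of ama-1, rad-51, rev-3, ddb-1, xpa-1, xpc-1, cnc-4, cep-1, lig-1, rfc-1, csa-1, hus-1, chk-1, atgl-1, ced-12, cki-2, cdc-25.2, prp-40, hsp-3, his-72, let-363, nhr-23, ins-39, end-3, irg-7, vit-5, let-19, nlp-23, sup-46, xpo-1 and ceh-13 were lost without at least 1 UV or Control array. In turn, 27 genes that did not pass were called in at least 1 alternative, among them skn-1, ercc-1, ced-13, ced-9, polq-1 and spe-9. Centring turned the balance of rises and falls in the lists for which the text gives centred counts, other than the chemoreceptor, cilium and cuticlin lists. Of 168 list counts 85 stayed within 1.5 times in every alternative. The lowest signals limit what can be seen: 14.4% and 7.73% of the 25% of genes with the lowest mean were called higher and lower.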
